A study of Ovis aries with 15 samples.

Results

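The kinesins of the Romney ewe mammary gland were examined in late pregnancy and in lactation, with the motors of cell division set beside those of vesicle and organelle transport. Members were taken by symbol, as every annotated feature named KIF or KIFC followed by its number, and 38 of the 24691 features met this rule. By their best known role 12 were counted as mitotic, 14 as transport and 12 as other kinesins. KIF5B, the ubiquitous heavy chain of conventional kinesin, is listed in the annotation under a placeholder symbol and so fell outside the rule. It was recognised by its gene identifier, and its values are given separately. CENPE, a kinetochore kinesin with a name of another form, is described with the partner genes.

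The tissue was mammary parenchyma taken by needle biopsy from primiparous Romney ewes at pasture, on gestation day 135 ± 2.4 (SD) and then 15 ± 1.27 (SD) days after parturition. RNA from several ewes was combined in each library, giving 9 pools for late pregnancy and 6 for lactation. The ewes came from 3 groups of dams, fed ad libitum (HM), at maintenance (MM) or below maintenance (LM) in early gestation and at maintenance afterwards, with 3 late pregnancy and 2 lactation pools from each group. All ewes were managed and fed alike after birth. The animals in each pool are not named in the labels, so p-values measure the spread between pools and cannot separate ewes. The same ewes were biopsied in both states, so pools of the states may share animals.

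Kinesins are motor proteins that use ATP to move along microtubules or, in a few families, to take microtubule ends apart. A group of them is made mainly in dividing cells, where they push spindle poles apart, move chromosomes and finish cytokinesis. Others carry vesicles, endosomes, mitochondria or ciliary cargo in cells that do not divide. The mammary epithelium multiplies in pregnancy, and after parturition it secretes milk protein and fat through vesicles and lipid droplets that leave at the apical surface.

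Between 6471237 and 16898986 reads were used per late pregnancy library (median 13919007) and between 9014506 and 24001031 per lactation library (median 15075423). The share of reads from milk protein genes was 13.7% to 23.4% before parturition and 71.3% to 75.8% after it. Kinesins received 5577 to 15273 reads per library in late pregnancy (median 10246) but only 1544 to 3971 in lactation (median 2212.5). Levels are given as CPM, reads per 1000000 reads of a library after trimmed mean (TMM) scaling, which sets the bulk of genes equal between libraries. A count of 3 reads was worth 0.101 to 0.274 CPM in late pregnancy and 0.261 to 0.659 CPM in lactation, and levels near these values carry large counting error. Where genes are compared with each other, CPM per kilobase of exon is used. Changes are log2 ratios of lactation over late pregnancy from edgeR's quasi-likelihood test on 13345 genes, and a gene is called higher or lower at an adjusted p below 0.05.

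All 12 mitotic kinesins were lower in lactation, each of them over 2-fold, and none of their lactation ranges overlapped those of late pregnancy. Their median log2 change was -3.36, against -0.03 for all genes tested. Of the transport kinesins, 10 of 14 had enough reads to be tested: 6 were lower, 1 was higher and 3 were not called. The median of these 10 was -0.36. Of the other kinesins, 7 of 12 were tested, 3 lower and 2 higher, with a median of -0.02. Across all genes tested 68.4% were called, 35.2% lower and 33.1% higher, with 13.0% lower and 9.13% higher by over 2-fold, and 40.2% had ranges that did not overlap. With library size alone as the scaling, 97.8% of genes were called, 95.2% lower and 2.64% higher, and all 29 tested kinesins were lower. With upper quartile scaling 70.5% were called, 44.9% lower and 25.6% higher. The 6 of 10 transport kinesins called lower, 2 of them over 2-fold, can be read against the same background. The division into roles rests on general knowledge, but it was made with earlier results of these data known and was not tested as a set. KIF2A, which also acts at spindle poles, is counted among the other kinesins and was not called. In bulk tissue, fewer cells of a type and less RNA per cell cannot be told apart.

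**Figure D1:**
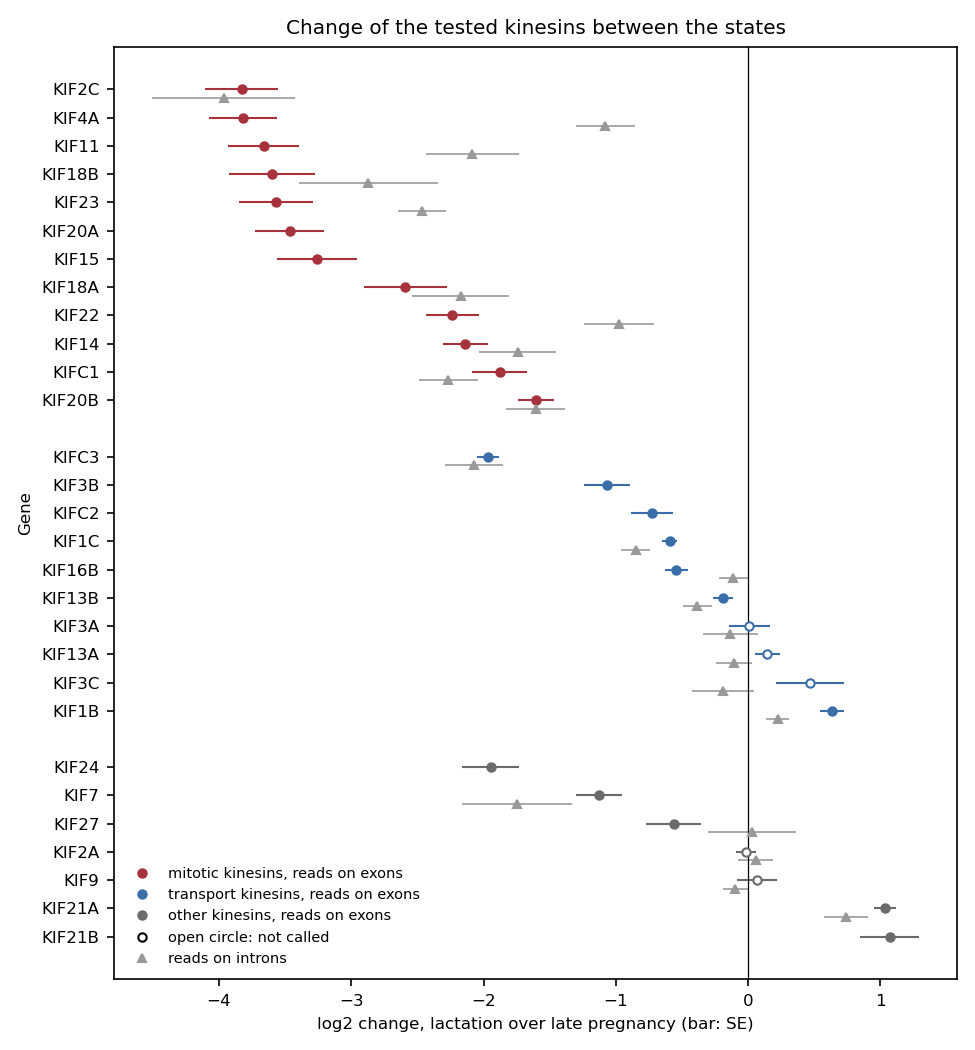
Log2 change, lactation over late pregnancy, of the 29 tested kinesins on exon reads (circles, open where not called) and, where tested, on intron reads (triangles), with bars of 1 SE. The 12 mitotic kinesins lie between -3.83 and -1.60 on exon reads and the 10 transport kinesins between -1.97 and 0.63, while KIF1B, KIF21A and KIF21B are called above 0 with this scaling and lie below 0 when libraries are scaled by size alone.

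The make-up of the family within a library does not depend on scaling between libraries. Mitotic kinesins made up 22.5% to 34.1% of the summed kinesin level per kilobase in late pregnancy, with a mean of 28.7% ± 4.25 (SD, n = 9). In lactation they made up 5.03% to 9.80%, with a mean of 7.45% ± 1.77 (SD, n = 6), so that the states did not overlap. The transport kinesins accounted for 60.1% ± 3.91 in late pregnancy and 72.4% ± 1.92 in lactation. The share of the other kinesins was 11.2% ± 0.798 in late pregnancy and 20.1% ± 1.46 in lactation. These 3 shares sum to the whole, so a fall in the first raises the rest. The ratio of mitotic to transport level fell from 0.483 ± 0.102 to 0.103 ± 0.0264. Both sums fell on the TMM scale. The mitotic one went from 35.4 ± 6.81 to 5.44 ± 1.27 CPM per kilobase and the transport one from 73.5 ± 2.74 to 52.9 ± 2.21 CPM per kilobase. KIF5B, outside the rule, is left out of these shares, sums and ratios. It averaged 20.4 CPM per kilobase in late pregnancy and 27.1 in lactation, so the transport values with KIF5B would be larger and their fall smaller.

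**Figure D2:**
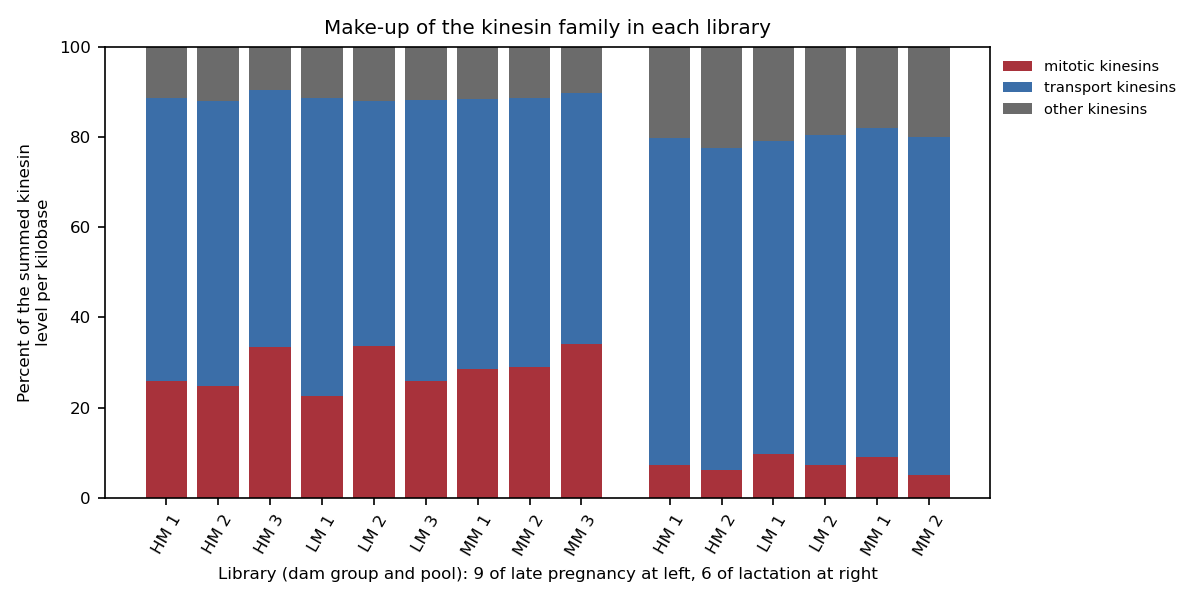
Share of the summed kinesin level (CPM per kilobase, in percent) held by mitotic, transport and other kinesins in each of the 15 pools. Mitotic kinesins hold 22.5% to 34.1% in the 9 late pregnancy pools and 5.03% to 9.80% in the 6 lactation pools. KIF5B, outside the rule, is not included.

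Among the motors that build the spindle, KIF11 (22:13731280-13772571 in the coordinates of the file, as for all positions here) had the highest CPM in late pregnancy. Its product, Eg5, slides antiparallel microtubules to separate the spindle poles. KIF11 stood at 10.4, 18.6 and 25.5 CPM (lowest, median and highest) in late pregnancy and at 0.381, 1.54 and 2.11 CPM in lactation. Every late pregnancy pool was well above every lactation pool, and the log2 change was -3.66 (SE 0.269, adjusted p = 2.72e-10). KIF15, which shares work with Eg5 in keeping the spindle bipolar, went from a median of 5.48 to 0.485 CPM, a log2 change of -3.26 (SE 0.302, adjusted p = 9.3e-09). KIFC1 is a minus-end motor that gathers microtubules into poles. It lay between 8.79 and 15.8 CPM in late pregnancy and between 1.58 and 4.88 CPM in lactation, a smaller log2 change of -1.88 (SE 0.208, adjusted p = 1.22e-07).

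The motors that work on chromosomes and kinetochores were all lower. KIF2C (1:19195968-19214069), known as MCAK, takes tubulin off microtubule ends at kinetochores so that wrong attachments can be released. Its lowest, median and highest levels were 5.03, 7.57 and 9.70 CPM in late pregnancy and 0.220, 0.462 and 0.703 CPM in lactation. The pools of lactation were at or near the value of a few reads, and the log2 change was -3.83 (SE 0.278, adjusted p = 2.27e-10), a 14.2-fold difference. KIF4A (X:59749526-59881375) is a chromokinesin that binds chromosome arms and later the central spindle. It stood at 6.94, 10.6 and 14.1 CPM in late pregnancy and at 0.226, 0.804 and 1.22 CPM in lactation, and its log2 change of -3.82 (SE 0.258, adjusted p = 7.87e-11) differed from that of KIF2C by less than either error. KIF22, the other chromokinesin, went from a median of 9.31 to 1.67 CPM with a log2 change of -2.24 (SE 0.200, adjusted p = 5.47e-09). KIF18A and KIF18B shorten microtubules at plus ends during chromosome alignment and spindle positioning. KIF18A went from a median of 2.24 to 0.381 CPM (log2 change -2.59, SE 0.313), and KIF18B from 3.30 to 0.312 CPM (log2 change -3.60, SE 0.324). KIF18B had no reads in the second lactation pools of LM and MM, so the size of its change is poorly bounded.

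The kinesins of cytokinesis fell unequally. KIF20A (5:46993779-47002152), or MKLP2, brings the chromosomal passenger complex to the central spindle. It was at 8.64, 13.8 and 20.9 CPM in late pregnancy and at 0.564, 1.44 and 1.91 CPM in lactation, with a log2 change of -3.47 (SE 0.259, adjusted p = 3.54e-10). KIF23 (7:16078205-16134543) encodes MKLP1, which with RACGAP1 forms the centralspindlin complex that marks the division plane. Its levels were 8.1, 10.8 and 14.0 CPM in late pregnancy and 0, 0.93 and 1.57 CPM in lactation, a log2 change of -3.57 (SE 0.282, adjusted p = 8.07e-10). KIF23 overlaps the ribosomal protein gene RPLP1 by 33 bases, and RPLP1 had a mean of 1783 CPM in late pregnancy and 1535 CPM in lactation. Strand was not used in counting as far as the sources state, so reads of this stretch cannot be told apart. KIF14, a partner of citron kinase at the midbody, went from a median of 7.76 to 1.66 CPM (log2 change -2.14, SE 0.169, adjusted p = 8.32e-10). KIF20B (MPP1) acts late in abscission, and its change on exon reads was the smallest of the 12 in edgeR. It lay between 14.0 and 20.8 CPM in late pregnancy and between 3.53 and 6.86 CPM in lactation, with a log2 change of -1.60 (SE 0.134, adjusted p = 1.96e-09).

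**Figure D3:**
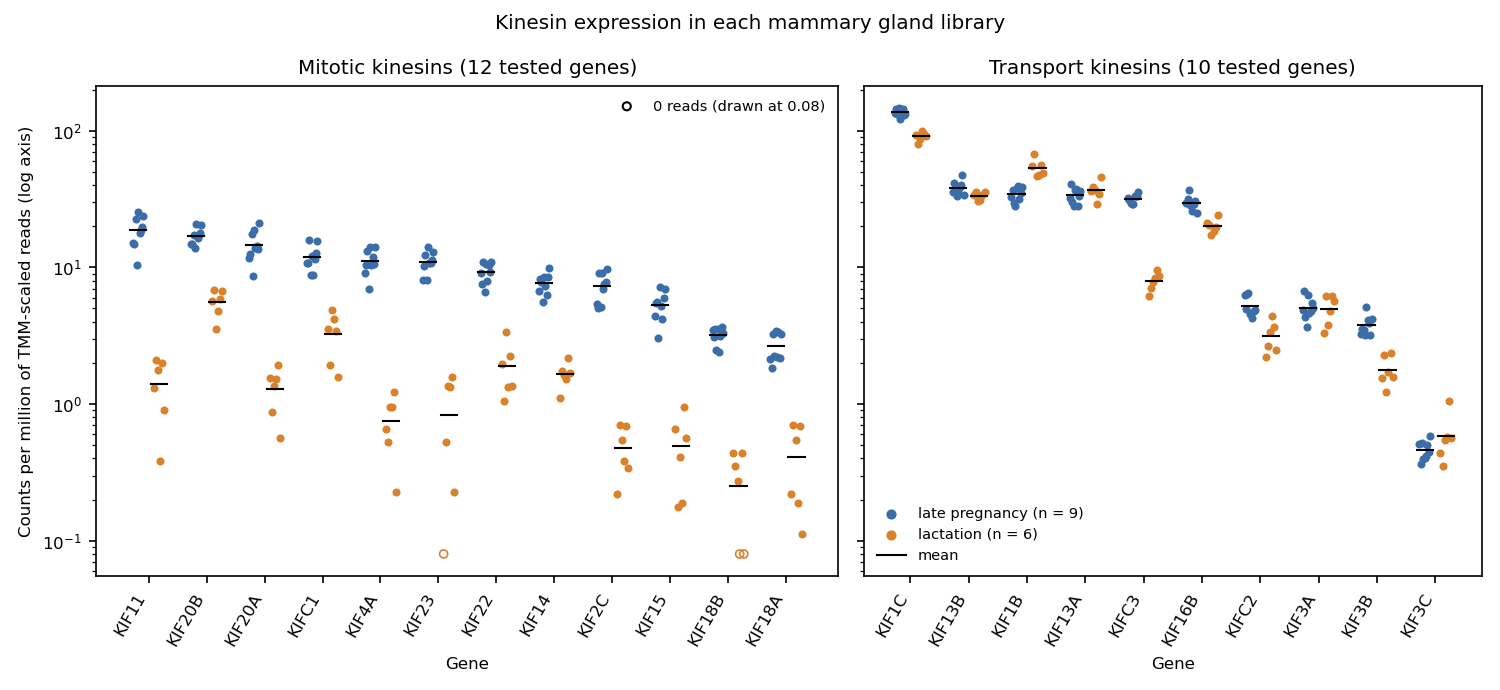
Level (CPM, log scale) of the 12 mitotic and the 10 tested transport kinesins in each pool (points; 9 of late pregnancy, 6 of lactation) with the mean of each state (line) and open circles for pools with 0 reads. The mitotic kinesins separate the states without overlap, whereas KIF13A, KIF13B, KIF3A, KIF3C and KIFC2 overlap.

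Late pregnancy pools differed from each other in the same direction across many mitotic kinesins. The first LM pool of late pregnancy had the lowest level of 9 of the 12, as well as of 5 of the 10 tested transport and 3 of the 7 tested other kinesins. Its MKI67, the proliferation antigen Ki-67, was at 2.60 CPM against 8.21 to 16.0 CPM in the other late pregnancy pools. The second LM pool had the highest level of 5 of the 12 and the third MM pool of 4. The third HM pool was highest for 2 and the second MM pool for 1. In lactation the highest levels were spread over 4 pools. The first MM pool was highest for 5 kinesins and the second HM pool for 4.

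The partners of the mitotic kinesins moved with them for the most part. Of 18 tested genes of the spindle and of cytokinesis, 16 were lower in lactation, 1 was higher and 1, CKAP5, was not called, with a median log2 change of -2.47. The 3 largest falls were those of DLGAP5, a microtubule-binding protein of the spindle (10.0 to 0.538 CPM, log2 change -4.15), CDCA8, the borealin subunit of the passenger complex (8.79 to 0.673 CPM, -3.61), and CENPE (10.6 to 0.850 CPM, -3.45), all as means per state. RACGAP1, the partner of KIF23, changed by -3.23 on the log2 scale and AURKB, the kinase that KIF20A carries, by -3.25. CIT, citron kinase, was the exception: it rose from 9.40 to 65.0 CPM (log2 change 2.79, adjusted p = 1.37e-14) while its partner KIF14 fell. All 16 proliferation genes tested were lower as well, with a median of -2.12. Their summed level was 317 to 447 CPM in late pregnancy and 91.4 to 135 CPM in lactation. The counts of both lists stand beside 35.2% of all genes called lower, and 13.0% lower by over 2-fold.

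The transport kinesins spanned a wide range of levels and were called in both directions. In the kinesin-3 family, KIF1C (11:26006266-26026179), a fast carrier of dense-core vesicles and integrins, was the most abundant kinesin of the rule in both states. It stood at 121, 134.7 and 145.8 CPM in late pregnancy and at 80.5, 92.2 and 99.0 CPM in lactation. The states did not overlap, and the log2 change was -0.59 (SE 0.0563, adjusted p = 1.31e-08). Per kilobase it averaged 34.4 CPM in late pregnancy and 22.8 CPM in lactation, and its share of the summed family level was 28.2% ± 2.94 and 31.2% ± 2.50 (SD). KIF1B (12:41337975-41474632), whose isoforms carry mitochondria and synaptic vesicle precursors, was the one transport kinesin called higher. It stood at 27.9, 35.2 and 39.2 CPM in late pregnancy and at 46.2, 52.1 and 67.0 CPM in lactation. The log2 change of KIF1B was 0.63 (adjusted p = 3.24e-06), but -1.28 with library size alone, where the median of all genes was -1.94.

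The endosomal members of kinesin-3 differed. KIF16B, a carrier of early endosomes with a lipid-binding PX domain, lay between 25.0 and 36.9 CPM in late pregnancy and between 17.2 and 24.2 CPM in lactation, a log2 change of -0.54 (adjusted p = 1.69e-05). KIF13A, which moves recycling endosomes, overlapped widely, with medians of 33.5 and 36.6 CPM and a log2 change of 0.14 that was not called (adjusted p = 0.184). KIF13B, a carrier of phosphoinositide-bound and caveolin cargo, had medians of 36.7 and 33.6 CPM, overlapping, and a log2 change of -0.19 (adjusted p = 0.0356). That call was lost within lane 8 (adjusted p = 0.237), and without any one of 7 pools, with adjusted p between 0.0517 and 0.0902: the first and second lactation pools of LM, the first lactation pools of HM and MM, the second late pregnancy pool of HM, and the first and second late pregnancy pools of MM. KIF1A, the neuronal relative, had 43 reads in all late pregnancy pools together and 9 in lactation and was not tested.

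Kinesin-2 is a heterotrimer in which KIF3A joins KIF3B or KIF3C, with KIFAP3 as the cargo-binding subunit, and it serves cilia as well as vesicles. KIF3A was not called, at medians of 4.89 and 5.20 CPM (log2 change 0.01, adjusted p = 0.962). KIF3B lay between 3.18 and 5.14 CPM in late pregnancy and between 1.22 and 2.35 CPM in lactation, without overlap, a log2 change of -1.07 (SE 0.174, adjusted p = 1.91e-05). KIF3C was low in both states, with medians of 0.446 and 0.553 CPM, and was not called (log2 change 0.47, adjusted p = 0.148). KIFAP3 was lower, at 23.5 and 15.1 CPM on average (log2 change -0.62, adjusted p = 9.53e-06). KIF17, the homodimeric kinesin-2, had 66 and 26 reads over the late pregnancy and lactation pools. It was not tested in the filtered set, and with no filter its log2 change was 0.70 (adjusted p = 0.109).

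The minus-end motor KIFC3 (14:25149926-25179772), which acts at apical transport and adherens junctions of epithelia, had the largest change of the tested transport kinesins. It stood at 29.2, 32.3 and 35.3 CPM in late pregnancy and at 6.15, 8.12 and 9.49 CPM in lactation. Every lactation pool lay far below every late pregnancy pool, the log2 change was -1.97 (SE 0.0826) and the adjusted p of 5.08e-14 was the smallest among the tested kinesins. Its share of the summed family level went from 8.65% to 3.61%. KIFC2, a related C-terminal motor best known from neurons, was at medians of 4.92 and 3.01 CPM, with a slight overlap and a log2 change of -0.73 (adjusted p = 4.32e-04).

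Conventional kinesin-1 was present mainly as KIF5B (13:32400657-32447214). KIF5B stood at 106, 109 and 119 CPM in late pregnancy and at 136, 149 and 157 CPM in lactation. The states did not overlap, and the log2 change was 0.41 (SE 0.0478, adjusted p = 2.79e-07), with library size alone -1.50. Per kilobase KIF5B averaged 20.4 CPM in late pregnancy, below KIF1C at 34.4 CPM, and 27.1 CPM in lactation, above KIF1C at 22.8 CPM. With KIF5B counted, the transport kinesins would be 6 lower, 2 higher and 3 not called of 11, with a median of -0.19. The neuronal heavy chains were rare: KIF5C had 55 and 28 reads over the late pregnancy and lactation pools, and KIF5A 34 and 11. With no filter on low counts KIF5C was called higher (log2 change 1.13, adjusted p = 0.00788) and KIF5A was not (log2 change 0.46, adjusted p = 0.505). Both are mainly neuronal. Of the nerve and Schwann cell markers 5 were tested, 1 lower and 4 not called, with a summed level of 80.0 to 105 CPM in late pregnancy and 83.6 to 96.2 CPM in lactation, most of it from SOX10 (means 78.6 and 82.3 CPM), while GFAP was at the value of 3 reads or below. Their part in the KIF5C level was not tested.

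The light chains and adaptors that link kinesins to cargo changed in both directions, with 7 lower, 8 higher and 4 not called of 19 tested and a median of -0.12, near the 35.2% lower and 33.1% higher of all genes. The JNK-interacting scaffolds MAPK8IP1 and MAPK8IP2, which bind kinesin light chains, rose from 1.39 to 4.99 CPM (log2 change 1.85) and from 1.39 to 4.65 CPM (1.70). FEZ2, an adaptor of kinesin-1, fell from 12.8 to 5.98 CPM (log2 change -1.08). Among the light chains KLC1 rose slightly, by a log2 change of 0.22 (adjusted p = 0.0105). KLC3 fell from 6.19 to 2.98 CPM (adjusted p = 2.32e-06), the largest change of a light chain. KLC4 fell slightly, by a log2 change of -0.238 (adjusted p = 0.00296), and KLC2 was not called (adjusted p = 0.671). Of 22 tested subunits and regulators of the opposing motor dynein and of dynactin, 10 were higher and 6 lower (median log2 change 0.08), which can be read against the same shares. DYNC1LI2, a dynein light intermediate chain, rose from 20.7 to 46.1 CPM (log2 change 1.14). The related regulators NDE1 and NDEL1 moved apart, NDE1 from 9.09 to 4.17 CPM (log2 change -1.13) and NDEL1 from 24.5 to 47.2 CPM (log2 change 0.94). All of the higher calls in these lists are relative to the bulk of genes.

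Among the kinesins with other roles, KIF21A and KIF21B, which restrain microtubule growth at the cell cortex, were the 2 with higher levels in lactation. KIF21A lay between 11.0 and 14.9 CPM in late pregnancy and between 21.7 and 31.3 CPM in lactation, without overlap. Its log2 change was 1.04 (SE 0.0851, adjusted p = 1.48e-09), and -0.88 with library size alone. KIF21B was lower in level, with medians of 2.39 and 4.22 CPM and touching ranges, and its log2 change was 1.07 (SE 0.22, adjusted p = 2.46e-04), or -0.82 with library size alone. KIF2A, the interphase relative of KIF2C that trims microtubules in resting cells and at spindle poles, had means of 27.9 and 27.6 CPM and was not called (log2 change -0.02, adjusted p = 0.873), but was called lower with library size without the milk protein genes (-0.23, adjusted p = 0.0179) and with library size alone.

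The kinesins of cilia and centrioles were low. KIF24, which trims centriolar microtubules and holds back cilium growth, lay between 2.75 and 4.92 CPM in late pregnancy and between 0.659 and 1.76 CPM in lactation (log2 change -1.95, adjusted p = 1.14e-07). KIF7, which organises the ciliary tip for hedgehog signalling, went from a median of 3.30 to 1.79 CPM without overlap (log2 change -1.13, adjusted p = 8.96e-06). KIF27, the relative of KIF7 linked to motile cilia, had means of 2.41 and 1.57 CPM with overlap (log2 change -0.56, adjusted p = 0.0204), and that call was lost on whole-gene reads, by limma and within either lane (adjusted p between 0.0509 and 0.134). KIF9 was not called (means 2.42 and 2.50 CPM, adjusted p = 0.701). KIF6 had 4 to 19 reads in each late pregnancy pool and none in any lactation pool, and was at least 7.15-fold lower in lactation when 3 reads over the whole group are taken as the floor. It did not pass the filter on low counts, and with no filter its adjusted p was 5.32e-05. Of the motile cilia markers DNAI1, DNAI2 and TEKT1 were at the floor. RSPH1, the only one tested, was lower in lactation (1.33 to 0.473 CPM, log2 change -1.44, adjusted p = 6.84e-05). The summed list was 1.48 to 2.33 CPM in late pregnancy and 0.381 to 1.41 CPM in lactation. The part of ciliated cells in these levels was not tested.

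The 4 remaining kinesins were too rare for the filter. KIF12, known from kidney and liver epithelium, had 87 reads over the late pregnancy pools and 7 over those of lactation (log2 change with no filter -1.52, adjusted p = 0.00886). KIF26B had 66 and 15 reads, KIF19 29 and 3, and KIF25 9 and 1, and none of these was called with no filter (adjusted p = 0.918, 0.437 and 0.533).

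Close relatives were then compared within each pool, as the log2 ratio of their levels per kilobase, which is free of scaling between libraries. Of 12 pairs, 9 shifted between the states at an adjusted p below 0.05 in an exact two-sided permutation test. The test ran over the 5005 splits of the pools, in which 0.0004 is the smallest p possible. The share of such shifts among pairs of all genes was not computed, and 68.4% of single genes were called between the states. Several pairs share a gene, so the count is a description and not a trait of kinesins. KIF2A exceeded KIF2C by a log2 ratio of 1.77 in late pregnancy and of 5.51 in lactation, a shift of 3.74 ± 0.216 (SE, exact permutation test, adjusted p = 0.000799). KIF2C had only 1 to 8 reads per lactation pool, so the 0.5 reads added to each count affect the size of this shift. The mean log2 ratio of KIF20A to KIF20B was 0.64 in late pregnancy and -1.22 in lactation, a shift of -1.85 ± 0.354 (exact permutation test, adjusted p = 0.000799). KIF20A was thus the more abundant of these mitotic relatives on average in late pregnancy and the less abundant in lactation. The pair of KIF18A and KIF18B is among the 9, but KIF18A had 1 to 8 reads and KIF18B 0 to 5 per lactation pool. In the 2 pools with no KIF18B reads the ratio is set by the 0.5 reads added, so no size is given for it.

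Among the transport pairs KIF1B gained on KIF1C by 1.23 ± 0.134 and KIF3A on KIF3B by 1.02 ± 0.134, both log2 ratios without overlap between the states (exact permutation test, adjusted p = 0.000799 for each). KIF3B lost ground to KIF3C by -1.46 ± 0.226, and KIFC2 gained on KIFC3 by 1.26 ± 0.152, with the same p. KIF3C had only 4 to 12 reads per late pregnancy pool and 2 to 12 per lactation pool. The 0.5 reads added to each count therefore affect the size of shifts that involve KIF3C. KIFC1 lost ground to KIFC2 (-1.18 ± 0.245, exact permutation test, adjusted p = 0.00206). KIF13A gained a little on KIF13B (0.32 ± 0.099, exact permutation test, adjusted p = 0.0123). The mitotic KIFC1 and the transport motor KIFC3 shifted by only 0.08 ± 0.293 relative to each other (exact permutation test, adjusted p = 0.823). KIF21A and KIF21B shifted by -0.04 ± 0.262 (exact permutation test, adjusted p = 0.851). KIF3A against KIF3C shifted by -0.43 ± 0.236 and did not pass (exact permutation test, adjusted p = 0.0849), although with 1 read added in place of 0.5 the shift was -0.52 (adjusted p = 0.035).

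**Figure D4:**
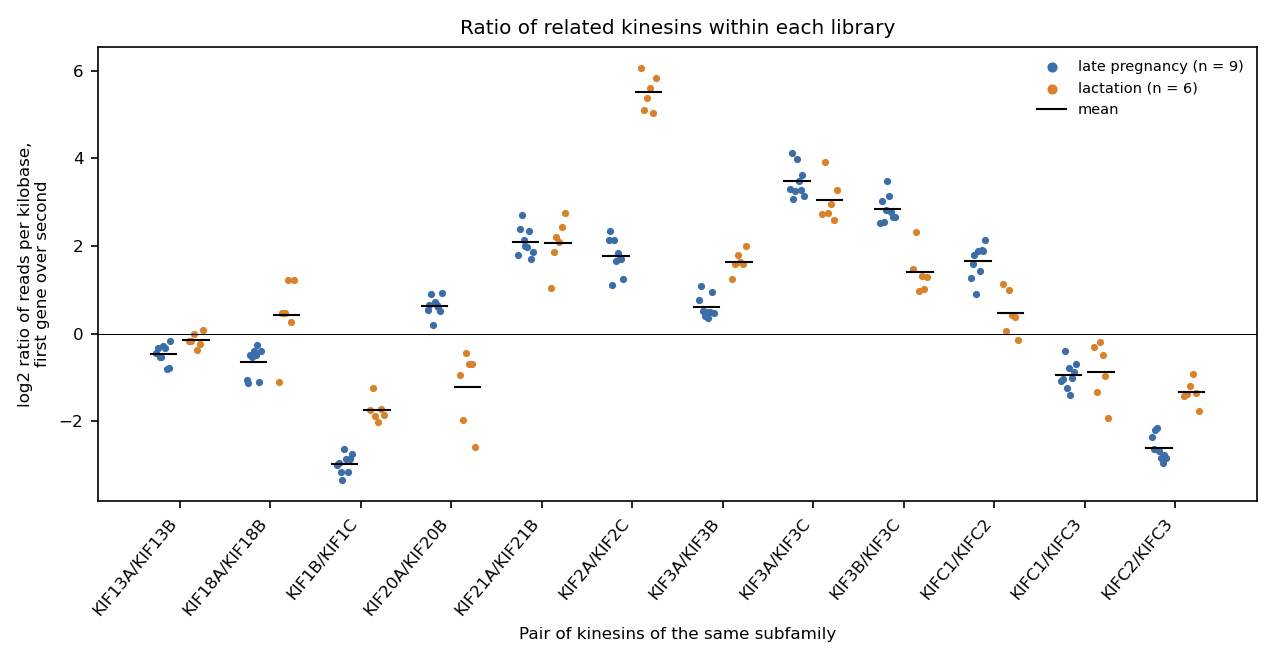
Log2 ratio of levels per kilobase for 12 pairs of related kinesins in each pool, by state. KIF2A over KIF2C moves from a mean of 1.77 in late pregnancy to 5.51 in lactation, where KIF2C had 1 to 8 reads per pool. KIFC1 over KIFC3 moves by 0.08.

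Reads on introns gave a further readout of the same genes. The 10 mitotic kinesins that passed the filter on intron reads were all called lower, and 9 of them fell over 2-fold. Their median log2 change was -2.13. In lactation KIF2C and KIF18B had 0 to 1 intron reads per pool and KIF18A 0 to 2. These genes passed the filter through late pregnancy only, and the sizes of their falls are poorly bounded. Over all 10344 genes tested on introns, 57.1% were called, 24.6% lower and 32.5% higher, and the median was 0.075. Of 10 transport kinesins with enough intron reads 3 were lower (KIFC3, KIF1C and KIF13B), 3 higher (KIF1B, KIF5C and KIF17) and 4 not called. Of 7 other kinesins KIF6 and KIF7 were lower and KIF21A was higher. KIF5C and KIF17, too rare on exons, rose on introns by log2 changes of 1.00 (adjusted p = 8.14e-03) and 0.76 (adjusted p = 1.67e-04), and KIF6 fell (-1.17, adjusted p = 6.63e-04). On introns KIFC3 (log2 change -2.07, adjusted p = 1.5e-08), KIF1C (-0.85, adjusted p = 4.44e-07) and KIF20B (-1.61, adjusted p = 1.35e-06) changed in the same direction as on exons. KIF1B did too (0.22, adjusted p = 0.0297), but by less than on exons (0.63). The call of KIF1B was lost when the scaling was computed on the intron reads themselves (log2 change 0.14, adjusted p = 0.119).

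For 6 of 23 kinesins the intron change differed from the exon change in an edgeR test of the difference, where 32.1% of 9800 genes were called, 19.0% with intron above exon and 13.2% below. KIF4A was the most different: its introns changed by -1.08 and its exons by -3.82, a difference of 2.72 ± 0.359 (SE, adjusted p = 1.57e-07). The introns of KIF4A had 27 to 84 reads per late pregnancy pool and 2 to 18 per lactation pool. KIF11 (difference 1.56 ± 0.448), KIF22 (1.26 ± 0.344) and KIF23 (1.11 ± 0.297) also fell less on introns than on exons, at adjusted p of 0.00675, 0.00431 and 0.00365. Their intron reads per lactation pool were few, 0 to 12, 0 to 13 and 5 to 25. KIF23 overlaps RPLP1, and whether reads of that gene enter its intron count was not tested. KIF16B differed by 0.42 and KIF1B by -0.41, at adjusted p of 0.00116 and 0.00123. KIF20B (-0.01), KIFC3 (-0.11) and KIF2C (-0.15) showed no difference past the threshold, the last with 0 to 1 intron reads in each lactation pool.

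Dam nutrition had no detectable effect on the family. Across the 3 dam groups in late pregnancy, none of 31 kinesins tested was called by edgeR and none had an unadjusted p below 0.05, and DESeq2 called none. Of all 13747 genes tested edgeR called 0 (0.0%), 571 (4.15%) had an unadjusted p below 0.05, and DESeq2 called 20 (0.145%) with 3.51% below an unadjusted 0.05. The change between states was not called different between dam groups for any of 29 kinesins by edgeR (smallest adjusted p 0.712, background 0.0%). An unadjusted p below 0.05 was found for KIF21B (0.00369) and KIFC1 (0.0269), and 876 genes of the whole set (6.56%) reached that level. With 2 or 3 pools per group only large effects could have been seen.

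Of 59 tested markers of 10 cell types 39 were called between the states (66.1%), near the 68.4% of all genes. Luminal epithelial markers were 4 higher and 1 lower of 8, and their summed level was 1493 to 1833 CPM in late pregnancy and 2385 to 2624 CPM in lactation. Most of this sum came from KRT19 (means 622 and 948 CPM) and ELF5 (629 and 1100 CPM), while KRT8, CDH1 and CLDN3 were not called. Of 8 myoepithelial markers 3 were higher and 2 lower. Fibroblast markers were lower in 6 of 8 (sum 1353 to 2154 and 649 to 1043 CPM), endothelial markers in 5 of 7 (224 to 306 and 168 to 230 CPM) and macrophage markers in 4 of 7 with 1 higher (146.2 to 193.6 and 83.7 to 121 CPM). All 8 T cell markers were lower, over 2-fold each, from a sum of 51.4 to 81.7 CPM to one of 16.7 to 24.8 CPM. Of 5 adipocyte markers 1 was higher and of 2 B and plasma cell markers 1 was higher and 1 lower. The part of cell composition in the kinesin changes was not tested.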

How the data were processed

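RNA from mammary biopsies was pooled, made into TruSeq v2 libraries and read as 100 bp pairs over 2 lanes per library. The headers of the deposited columns name only lane 7 or lane 8 for each library. Comparisons by lane follow the headers and may not separate the lanes fully. The authors mapped the reads in CLC Genomics Workbench to the sheep genome (version 3.2 in the methods, Oar_v3.1 in the submitters' processing notes) and deposited, per gene and library, read counts (exon, unique exon, whole gene) together with RPKM values and quantile-normalized RPKM values. Columns with the authors' own fold changes and p-values were not used. The counts carry no molecular identifiers.

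Exon counts then entered edgeR 4.0.16 (R 4.3.3), with filtering of low counts by state, TMM scaling, a quasi-likelihood fit over all 15 libraries, and Benjamini-Hochberg adjustment over all genes, with calls at an adjusted p below 0.05. SE is the log2 change divided by the root of F. Intron reads are whole-gene minus exon reads, fitted with the exon library sizes. Dam nutrition and its interaction with state were fitted likewise. Alternatives were DESeq2 1.42.0, limma 3.58.1 on log2(quantile-normalized RPKM + 1), other scalings and filters, unique reads, covariates, a replicate block and leaving out each library. The step was tested on simulated data.

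Every kinesin of the symbol rule is named, with the 3 called genes of largest change in each partner list and any gene a sentence needs. Members, roles and lists were chosen with earlier results of these data known. The subfamily ratios (0.5 reads added to each count) and the test of exon against intron reads were added after the data were seen. Pools of late pregnancy and lactation share numbers, but their deviations from the group means correlated at -0.023 to 0.065 over 6 same-numbered combinations, and those from the state means at -0.045 to 0.120, so the numbers were not taken to pair them. The number of ewes per lactation pool differs between the labels and the methods. KIF2B had no reads in any library, and KIF4B and KIF26A were not matched.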

Additional observations from a re-analysis of the deposited data

Results flagged for a closer look

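In 64 tests for a pool far from the others of its state, 2 kinesin levels stood out, where chance alone gives about 3.2. KIF27 in late pregnancy was highest in the second HM pool at 4.02 CPM, with the next pool at 2.72 CPM, a gap of 0.528 of the range. KIF3C in lactation was highest in the first MM pool at 1.04 CPM, with the next at 0.571 CPM, a gap of 0.683 of the range. Both genes are low, and the cause was not tested.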

How the results depend on the processing

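The 12 mitotic kinesins were lower under every alternative that kept them, and their median moved. It was -5.26 with library size alone, -2.93 within lane 7, -2.86 on whole-gene reads and -1.38 by limma on quantile-normalized RPKM. With at least 10 reads required in every library only 2 remained called, with a median of -1.82, since the filter removes genes that fell to a few reads. The other kinesins then had 0 lower and a median of 0.47. Library size alone moved the median of all genes to -1.94, called all 10 transport kinesins lower and 0 higher (median -2.27) and all 7 other kinesins lower and 0 higher (median -1.93), and reversed KIF21A (-0.88), KIF21B (-0.82), KIF9 (-1.84), KIF13A (-1.77), KIF1B (-1.28), KIF3A (-1.91), KIF3C (-1.41) and KIF5B (-1.50). It called 95.2% of all genes lower and 2.64% higher, against 44.9% and 25.6% with upper quartile scaling. Upper quartile scaling moved the median of all genes to -0.18 and of transport kinesins to -0.52, and library size without the milk protein genes gave -0.24, -0.57 and, for other kinesins, -0.23. Relative to the median of all genes the mitotic median ran from -3.36 (DESeq2) to -3.32 (library size alone) and the transport median was -0.34 under each of these scalings of exon counts. With no filter the median of all genes was -0.12, transport kinesins had 2 higher (median -0.12) and other kinesins 5 lower (median -0.75). Unique reads gave 5 other kinesins lower (median -0.56). Whole-gene reads gave 3 transport kinesins higher (median -0.18) and a median of -0.24 for other kinesins. By limma the median of all genes was -0.047 and transport kinesins had 2 higher (median -0.25). Within lane 7 the other kinesins had a median of -0.61. With a replicate block on 12 libraries the transport median was -0.54, against -0.53 without the block on the same libraries, and 8324 genes were called against 8496. Only 1 of 6 lactation pools correlated best with its own number. Leaving out 1 library at a time gave 12 to 12 mitotic kinesins lower (median -3.69 to -3.25), 5 to 6 transport kinesins lower (median -0.57 to -0.33), 3 to 5 other kinesins lower (median -0.64 to 0.021), 8891 to 9049 genes called and 0 to 1 called for dam nutrition, where DESeq2 called 20. The rise to 5 came in the 7 fits whose filter admitted KIF6 and KIF12. By limma KIF9 (adjusted p = 0.0193) and KIF3C (0.0493) were called higher. Depth limits the lactation values of several mitotic kinesins and of the rare members, which rest on a few reads per pool.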
